A study of Mus musculus with 42 samples.

Results

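Inverted embryos offer a mirror test of left-right patterning. If the inversion of the heart is a perfect mirror image, the left heart field of an inverted embryo and the right heart field of a normally oriented embryo are both the molecular right side. The comparison set 5 left libraries of homozygous *Ccdc40* mutants with inverted heart looping (embryos 2_7, 4_6, 10_3, 18_2 and 32_2) against 10 right libraries of embryos of the situs solitus cluster, which has the normal arrangement. These 15 libraries are part of 42 in the series, the left and right sides of the heart field of 21 mouse embryos at stage E8.5i.

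The 10 situs solitus embryos were 5 wild types (7_1, 8_1, 10_1, 17_7 and 22_4), genotype Ccdc40+/+, and 5 mutants with rightward looping (1_6, 2_2, 17_1, 19_6 and 22_1), genotype Ccdc40lnks/lnks like the inverted embryos. The lnks allele is a nonsense mutation and the background of the line is given as C56Bl6J. Genotype, sex and direction of looping came from the sample labels. The situs solitus cluster was set from gene expression, by the right-left asymmetry of genes asymmetric in wild types, and not by a label. All 5 embryos with inverted looping were in the inverted cluster, so that group is also defined by its labels. The 5 situs solitus mutants were picked among 11 mutants with rightward looping by that asymmetry, and 30 genes that may have formed the clusters are therefore given as values, without a test or a verdict of their own. The inverted left group held 2 females and 3 males and the situs solitus right group 4 females and 6 males. The heart tube, head, back and lower trunk had been dissected away and the sides separated at the midline, so each piece is a mixture of cell types. In such bulk samples, fewer cells of a type and less RNA per cell cannot be told apart.

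In the mouse embryo, motile cilia of the node drive a leftward flow of fluid that biases the signalling molecule Nodal to the left lateral plate mesoderm. Nodal acts through the co-receptor Cripto and the factor Foxh1 and switches on its own inhibitors Lefty1 and Lefty2. *Ccdc40* encodes a protein that motile cilia need in order to beat. The heart field holds progenitors that are added to both poles of the heart tube, and WNT and BMP signals control their growth and differentiation.

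Library totals ranged from 39456168 to 54421974 counts in the inverted left group and from 36572530 to 53644892 in the situs solitus right group. Levels are given as counts-per-million (CPM) after TMM scaling. Two-sided tests were edgeR's quasi-likelihood test with sex as a covariate and Benjamini-Hochberg adjustment over all genes. *Ccdc40* had 16.0 to 26.5 CPM on the right of the 5 wild types, 10.6 to 14.6 CPM on the right of the 5 situs solitus mutants and 11.4 to 14.8 CPM in the inverted left group, so that wild types and mutants did not overlap. Progenitor genes of the heart field were present in both groups. *Isl1*, a marker of the second heart field, had 78.2 ± 15.0 CPM in the inverted left group (SD, n = 5) and 95.3 ± 19.3 CPM in the situs solitus right group (SD, n = 10).

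Libraries of 2 situs solitus embryos stood apart. The right library of the mutant 2_2 had 3.02 CPM of *Wnt2*, a gene of cardiopulmonary progenitors, against 80.8 to 280 CPM in the other 9 libraries of the group, and 1.56 CPM of the heart field gene *Hand1* against 26.8 to 102 CPM. It also held the lowest summed level of heart tube muscle markers (382 CPM, with 6700 CPM the highest of the group) and of yolk sac markers (16.1 CPM, with 899 CPM the highest). The right library of the wild type 10_1 had the highest *Slc2a1*, at 1220 CPM against 464 to 766 CPM, and the lowest *Isl1*, at 54.8 CPM against 84.7 to 120 CPM. Values without 2_2 are given beside the results that it moved most.

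No gene differed between the inverted left and the situs solitus right at an adjusted p under 0.05, 0 of 24007 tested (0%). Without the 30 possible clustering genes the count was 0 of 23977 (0%). An unadjusted p under 0.05 was reached by 746 genes (3.11%), of which 356 were higher (1.48%) and 390 lower (1.62%) in the inverted left. Without 2_2 these were 0 of 23835 genes called (0%) and 941 at an unadjusted p under 0.05 (3.95%). DESeq2 called 5 genes (0.0208%), *Mamdc4* higher and *Prdx2-ps1*, *Gm18180*, *Gm7809* and *Gm7335* lower. Limma-voom called 0, with 810 genes at an unadjusted p under 0.05.

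A missing call does not show that a gene matched, so a gene was called matched only where the whole 95% interval of its log2 fold change by limma-voom lay between -0.5 and 0.5, a 1.41-fold change in either direction. This held for 11358 of 24007 genes (47.3%). The other 12649 genes were undecided, as their intervals reached past the bound. The share was larger for genes with more counts. Of genes with a mean count under 20, 0.115% were matched. The share was 21.7% for mean counts of 20 to 200, 79.6% for 200 to 2000 and 96.3% for 2000 and over. Matched shares of the gene lists below were not adjusted for depth, and its part in their distance from 47.3% was not tested. The match was not particular to the right side, since 11389 of 24045 genes (47.4%) were matched by the same rule between the inverted left and the situs solitus left. The sides were therefore compared by genes that are themselves asymmetric.

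Between the inverted left and the situs solitus left, 4 of 24045 genes were called (0.0166%), and 1836 had an unadjusted p under 0.05 (7.64%). Both comparisons share the 5 inverted left libraries. The called genes included *Nptx2* and *Slc8a3*, named here after their values were seen, and *4930512H18Rik*, which may have formed the clusters and is described by its levels only. *Nptx2* (ENSMUSG00000059991, chromosome 5, 144482692 to 144500381 in GRCm39), which encodes a secreted neuronal pentraxin, had 3.00 to 5.69 CPM in the inverted left, all below the 8.42 to 14.8 CPM of the situs solitus left (log2 fold change -1.45, SE 0.163, adjusted p = 0.00143). Its levels on the situs solitus right were 3.13 to 12.9 CPM, a range that held 4 of the 5 inverted left libraries, or 3 without 2_2, which was the lowest. The means were 4.49 CPM in the inverted left and 7.17 CPM on the situs solitus right. That log2 fold change was -0.68 (SE 0.302), or -0.76 without 2_2, and *Nptx2* was not called and was undecided. *Slc8a3* (ENSMUSG00000079055, chromosome 12, 81244687 to 81380796), a sodium-calcium exchanger gene, was above the situs solitus left. It had 1.84 to 2.48 CPM in the inverted left, 0.539 to 1.24 CPM in the situs solitus left (log2 fold change 1.13, SE 0.172, adjusted p = 0.0337) and a mean of 1.19 CPM with a highest value of 1.93 CPM in the situs solitus right (log2 fold change 0.78, SE 0.223, adjusted p = 1). The range of the situs solitus right held 3 of the 5 inverted left libraries.

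*4930512H18Rik*, a long noncoding RNA gene on chromosome 8, had means of 0.416 CPM in the inverted left, 0.861 CPM in the situs solitus right, 2.77 CPM in the situs solitus left and 2.89 CPM in the inverted right.

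**Figure D1:**
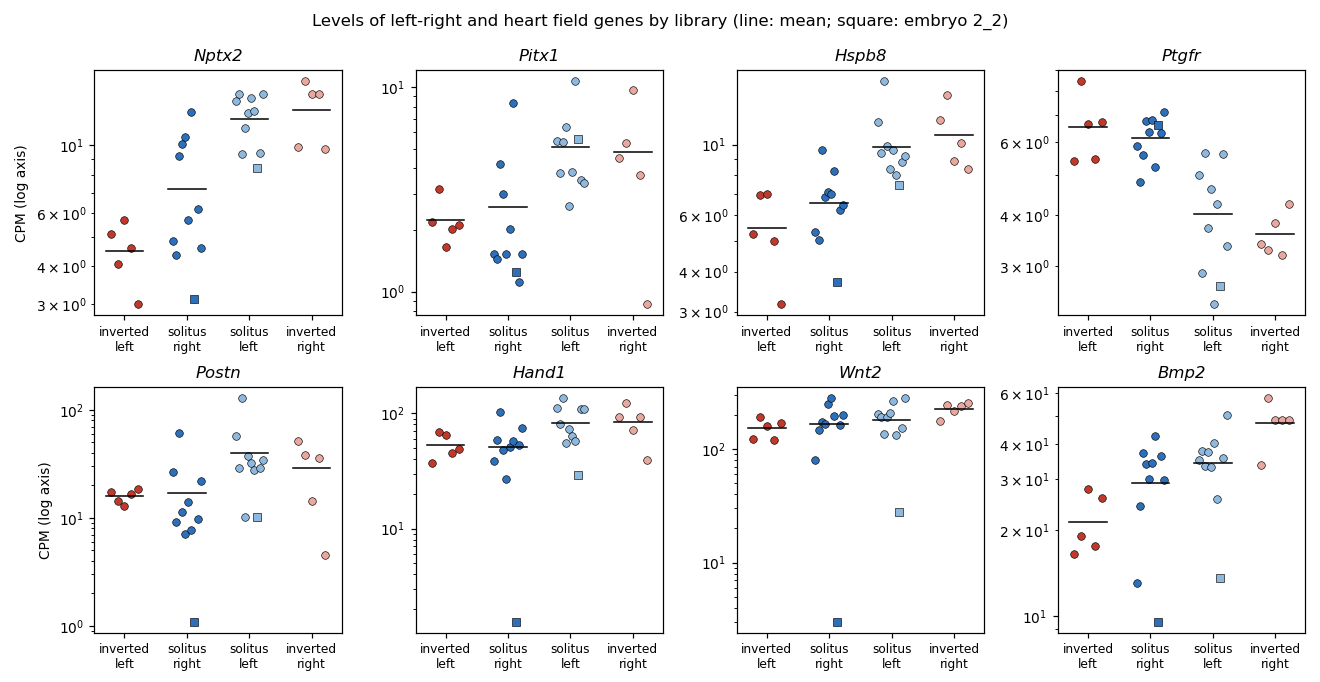
Levels of 8 genes in CPM on a log axis, by library, in the 5 inverted left, 10 situs solitus right, 10 situs solitus left and 5 inverted right libraries. Lines are means and squares are embryo 2_2. *Nptx2* and *Hspb8* in the inverted left lie below all situs solitus left values, while the 2_2 right library is far below the others for *Hand1* and *Wnt2*.

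The genes named in the study's text had been chosen on these same libraries for their asymmetry, so how they stand to the situs solitus left is a description. Among them, *Ptgfr* was matched between the inverted left and the situs solitus right. This prostaglandin F receptor gene had 6.64, 6.72, 5.42, 8.47 and 5.48 CPM in the inverted left and 4.80 to 7.11 CPM on the situs solitus right, with a log2 fold change of 0.10 (SE 0.126) and a limma-voom interval from -0.18 to 0.33. Against the situs solitus left, with a mean of 4.02 CPM, its log2 fold change was 0.71 (SE 0.192). *Hspb8*, a small heat shock protein gene, had 3.16 to 7.02 CPM in the inverted left, below the 7.47 CPM of the lowest situs solitus left library in 5 of 5 cases, and 4 of the 5 lay within the range of the situs solitus right, or 3 without 2_2. *Ccn4*, a secreted target of WNT signalling, had 10.3 ± 1.89 CPM (SD, n = 5) in the inverted left and 10.3 ± 4.42 CPM (SD, n = 10) in the situs solitus right, where the left of the same embryos had a mean of 19.0 CPM. Its 5 inverted left values lay within the range of either side, since the situs solitus left ran from 5.62 to 31.5 CPM. *Retreg1* had means of 3.88 and 3.91 CPM on the same 2 groups and 6.91 CPM on the situs solitus left. *Pitx1*, a homeobox gene, had 1.65 to 3.16 CPM in the inverted left, within the 1.11 to 8.35 CPM of the situs solitus right, and 4 of the 5 were below every situs solitus left library. *Ccn4* and *Pitx1* are possible clustering genes, so their levels are a description. For *Hspb8* and *Retreg1* the intervals reached past the bound, so they were undecided. The levels of *Trabd2b* and *Misp3* overlapped both sides. *Trabd2b*, which encodes a protease of WNT ligands, had means of 6.83 CPM in the inverted left, 5.79 CPM in the situs solitus right and 8.65 CPM in the situs solitus left, with 3 of the 5 inverted left libraries in the range of the right and 5 in that of the left. *Misp3* had means of 4.78, 3.84 and 6.72 CPM in the same order, with 4 libraries in the range of the right, or 3 without 2_2, and 5 in that of the left.

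**Figure D2:**
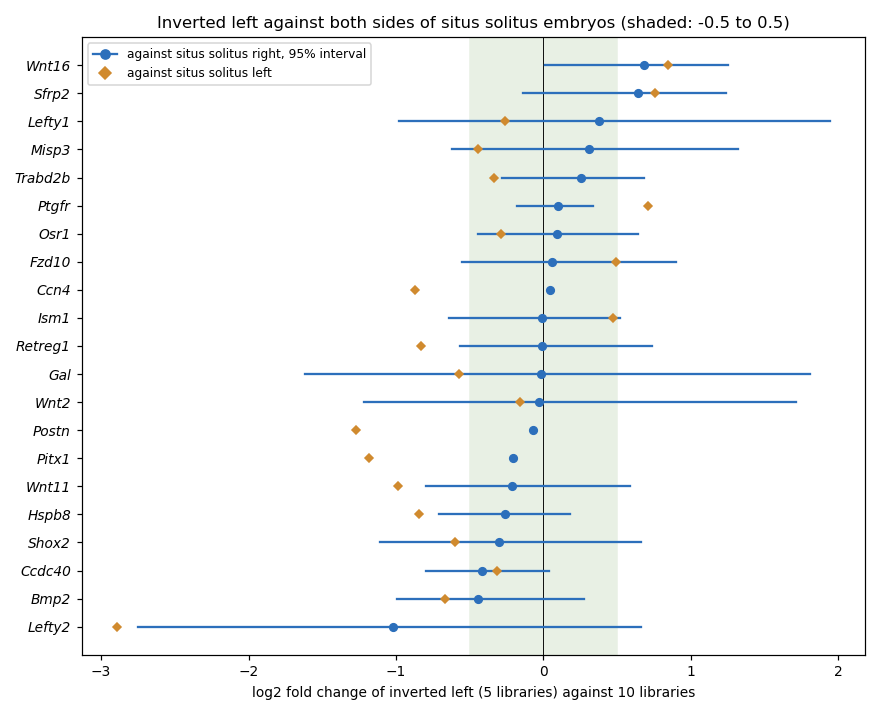
Log2 fold changes by edgeR of 21 genes for the 5 inverted left libraries against the 10 situs solitus right libraries (circles, with 95% limma-voom intervals as lines except for possible clustering genes) and against the 10 situs solitus left libraries (diamonds, without intervals). The interval of *Ptgfr* alone lies inside the shaded range of -0.5 to 0.5, and its diamond lies at 0.71.

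Most genes tested of the Nodal pathway were matched. Of its 19 genes tested of 22 listed, 0 were called and 12 were matched, 63.2% against 47.3% over all genes. A mean count of 2000 or more was reached by 5 of the 19, and the part of depth in this share was not tested. Against the situs solitus left, 10 were matched. The matched genes were receptors and shared machinery, namely *Acvr1b*, *Acvr2a*, *Acvr2b*, *Smad2*, *Smad3*, *Smad4*, *Skil*, *Tgif1*, *Drap1*, *Furin*, *Pcsk6* and the antagonist *Dand5*. The 7 undecided genes included *Lefty1*, *Lefty2*, *Cfc1* and *Cripto*. *Nodal* itself had 1 to 7 counts in the inverted left libraries and 0 to 9 counts on the situs solitus right and was not tested. *Lefty2*, a Nodal inhibitor and target, had 11, 21, 12, 4 and 13 counts in the inverted left libraries, at most 0.488 CPM. The situs solitus right ranged from a count of 0 in 2_2, which allows up to 3 counts, to 2.40 CPM in 19_6, and held all 5 inverted left values. The log2 fold change was -1.02 (SE 0.701, adjusted p = 1), or -1.21 without 2_2. All 5 inverted left values lay below the lowest situs solitus left library, at 0.772 CPM. *Cripto*, the Nodal co-receptor gene, had 0.526 to 6.68 CPM in the inverted left and 0.996 to 53.0 CPM on the situs solitus right, where 19_6 and 22_4 had 50.4 and 53.0 CPM and the other 8 libraries 0.996 to 14.2 CPM. Its log2 fold change was -2.78 (SE 0.983, adjusted p = 1), with 3 of the 5 inverted left values inside the range of the other group.

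A wider view came from 59 genes chosen on the 5 wild types alone, by a paired edgeR test of right against left at an unadjusted p under 0.01, 1 direction in all 5 and a mean count of at least 20. Of these, 40 were left sided and 19 right sided. With an unadjusted threshold over 18075 genes of this depth, some genes enter by chance, and how many of the 59 did was not tested. Some, such as *Acot11* and *Gm37536*, had the opposite sign in the situs solitus mutants. Since wild types chose them, the 5 situs solitus mutants served as the reference. This reference is not independent of the list, because those mutants were picked by the asymmetry of such genes and 26 of the 59 are possible clustering genes, so no test was made and the values are a description. The differences were oriented so that a positive value is towards the left of wild types. The median over the list was 0.306 on the log2 scale for the left above the right of the situs solitus mutants, against 0.754 in the wild types that chose the list. The inverted left was at 0.135 relative to the right of the situs solitus mutants and at -0.142 relative to their left, and the inverted right was at 0.430 relative to their right. The value of the inverted left rested on 1 embryo. Without 2_2 it was at -0.0412 relative to the right and at -0.212 relative to the left. It was nearer to the right for 31 of 59 genes (52.5%), or 39 (66.1%) without 2_2, where the shares over all 18075 genes of this depth were 54.9% and 51.8%. For the 33 genes that are not possible clustering genes, the left of the situs solitus mutants was 0.231 above their right and the inverted left 0.0888 above it, and without 2_2 these were 0.168 and -0.0502. The median by library ran from -0.0163 to 0.191 in the inverted left and from 0.183 to 0.734 in the inverted right. The ranges of the 2 sides overlapped narrowly, and the inverted right was above the inverted left for 46 of the 59 genes in the direction that mirrors the wild types.

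**Figure D3:**
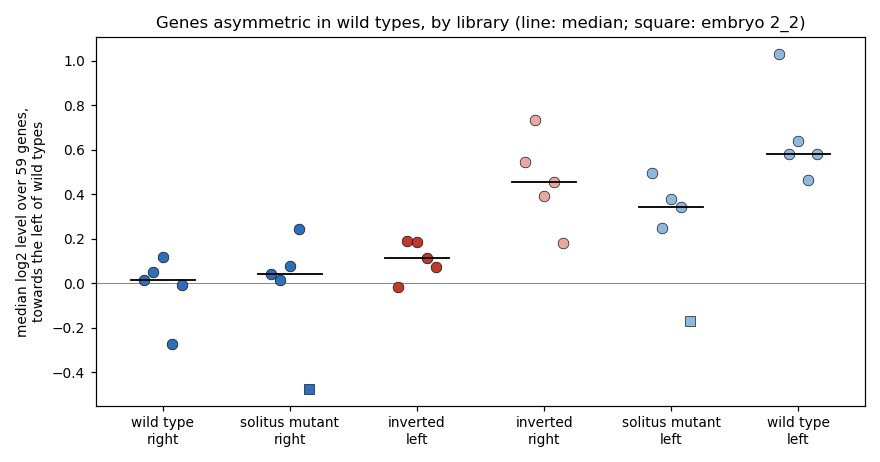
Median log2 level over the 59 wild-type asymmetric genes in each library, relative to the mean of the situs solitus mutant right and oriented towards the left of wild types, for 6 groups of 5 libraries. Lines are medians and squares are embryo 2_2. The inverted left runs from -0.0163 to 0.191, inside the ranges of the situs solitus mutant right (-0.474 to 0.243) and left (-0.167 to 0.497). Their medians, in this order, are 0.115, 0.0439 and 0.344. The inverted right runs from 0.183 to 0.734.

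Within the list, single genes took different places. *Vgll3*, a transcription cofactor gene with an asymmetry of 1.15 on the log2 scale (left minus right of the situs solitus mutants), was at 0.0958 in the inverted left relative to the situs solitus mutant right. This place rested on 2_2, with 0.198 CPM on its right against 0.851 to 4.97 CPM in the other situs solitus right libraries. Without 2_2 *Vgll3* was at -0.554 for an asymmetry of 0.423, past the right, and its edgeR log2 fold change against the situs solitus right went from -0.77 to -0.90. *Gm28875*, *Pitx1* and *Gm35533*, with asymmetries of 1.21 to 1.28, were at 0.290, 0.298 and 0.314, or at 0.174, 0.180 and 0.115 for asymmetries of 1.54, 1.03 and 1.44 without 2_2. *Postn*, *Hand1* and *Prss35*, which code for a matrix protein, a transcription factor and a serine protease, had asymmetries of 1.66, 1.32 and 1.07 and were at 1.27, 1.18 and 0.747, so they were nearer to the left. In this reference the right of 2_2 had 1.10 CPM of *Postn*, 1.56 CPM of *Hand1* and 0.682 CPM of *Prss35*. Without 2_2 the 3 genes were at 0.646, 0.219 and 0.123 for asymmetries of 1.28, 0.603 and 0.667, so *Hand1* and *Prss35* were nearer to the right and *Postn* stood midway. Against all 10 situs solitus right libraries the edgeR log2 fold changes were -0.07 for *Postn*, 0.05 for *Hand1* and -0.10 for *Prss35*, and -0.21, -0.09 and -0.23 without 2_2. *4930512H18Rik*, at -1.12 for an asymmetry of 1.48, lay past the right. The right-sided *Nkx2-1*, a foregut transcription factor gene with a left minus right difference of -1.21, was at -1.80 and so past the left, but at -2.12 for a difference of -2.39 without 2_2, which is short of the left. *Col3a1*, *Sfrp1* and *Dcn*, left-sided genes, lay past the left of the situs solitus mutants, at 0.515, 0.564 and 0.691 for asymmetries of 0.119, 0.288 and 0.405. Without 2_2 they were at 0.492, 0.326 and 0.606 for asymmetries of 0.299, 0.281 and 0.476, so *Sfrp1* was past the left by 0.0448.

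Genes that were asymmetric within the inverted embryos were next set across the mirror. The paired edgeR test of right against left in the 5 inverted embryos called 395 genes higher on the right and 73 higher on the left. It used the same inverted left libraries, so what follows is a description. Between the inverted left and the situs solitus right, 24.1% of the right-sided genes and 12.3% of the left-sided ones were matched, where the share over all genes tested in both was 48.4%. The right-sided genes had a median log2 fold change of -0.275 on the inverted left against the situs solitus right, and of 0.336 on the inverted right against the situs solitus left. The left-sided genes had medians of 0.391 and -0.357. The difference of right minus left had medians of 0.814 and -0.985 in inverted embryos, where the same genes had -0.170 and 0.201 in situs solitus. The sign was thus mirrored, and the difference was larger in the embryos that chose the genes. Marker sums of some other tissues also differed between the sides of inverted embryos. Those of heart tube muscle were higher on the right in 5 of 5 inverted embryos, by 1.58 to 2.74 times, and in 6 of 10 situs solitus embryos. Those of foregut endoderm were higher on the right in 4 of 5 and 2 of 10, and those of the neural tube in 0 of 5 and 5 of 10. For paraxial mesoderm it was 0 of 5 and 9 of 10, for neural crest 1 of 5 and 7 of 10, and for endothelium 5 of 5 and 4 of 10. Primitive blood had 2 of 5 and 5 of 10, and yolk sac and surface ectoderm each had 3 of 5 and 1 of 10. The part of these tissues in the split of 395 and 73 genes was not tested.

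No WNT gene was called. Of 26 ligands and receptors 10 were matched (38.5%, against 47.3% over all genes), with a median log2 fold change of 0.00. The matched genes included the receptors *Fzd2*, *Fzd3*, *Fzd4*, *Lrp5* and *Lrp6* and the ligand *Wnt5b*. Of 17 secreted modulators 3 were matched (17.6%), and of 15 targets 8 (53.3%), among them *Lef1*, *Tcf7*, *Sp5* and *Ccnd1*. Each of these lists holds 1 possible clustering gene, and without them 9 of 25, 3 of 16 and 8 of 14 were matched. *Wnt16*, a ligand gene, had 1.80, 1.42, 1.40, 1.13 and 1.03 CPM in the inverted left and 0.350 to 2.40 CPM on the situs solitus right, where the highest value was that of 2_2. All 5 inverted left values lay within that range, but only 2 without 2_2, when the highest was 1.39 CPM and the other 3 lay above it. Its log2 fold change was 0.68 (SE 0.319, adjusted p = 1), or 0.86 without 2_2. Against the situs solitus left it was 0.84 (SE 0.321, edgeR adjusted p = 0.553), with 2 of the 5 inverted left values inside that range. *Sfrp2*, which encodes a secreted WNT antagonist, had 27.2, 47.6, 61.7, 22.2 and 68.6 CPM in the inverted left and 15.3 to 71.6 CPM on the situs solitus right, the highest being that of 10_1 (log2 fold change 0.64, SE 0.331, adjusted p = 1). Its relative *Sfrp1*, a possible clustering gene, had means of 159 and 109 CPM in the same groups. *Rnf43*, a target that removes WNT receptors, had 2.42 to 5.66 CPM in the inverted left and 2.61 to 7.03 CPM on the situs solitus right (log2 fold change -0.55, SE 0.194, adjusted p = 1). *Wnt2* had 119 to 190 CPM in the inverted left, within the 80.8 to 280 CPM of the situs solitus right without 2_2. *Wnt11*, a ligand of heart progenitors, had 1.60 to 2.43 CPM and all 5 values lay within the situs solitus right, while 4 lay below every situs solitus left library.

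BMP genes had mostly negative fold changes, without a call. Of 16 ligands and antagonists tested, 0 were called and 3 were matched (18.8%, against 47.3% over all genes), with a median log2 fold change of -0.117, or -0.234 without 2_2. All 13 genes of the BMP response list were below 0, with a median of -0.138, or -0.197 without 2_2, where 47.8% of all genes were below 0. The 5 matched ones were *Id1*, *Id2*, *Id3*, *Smad7* and *Hey1*. *Tbx3*, a transcription factor gene that BMP signals induce, had 80.1, 82.8, 89.3, 72.5 and 72.4 CPM in the inverted left and 55.5 to 180 CPM on the situs solitus right, with the lowest values in 10_1 and 2_2 and 97.2 CPM or more in the other 8. Its log2 fold change was -0.53 (SE 0.226, adjusted p = 1), or -0.61 without 2_2. *Bmp2*, a ligand gene, had 16.4 to 27.7 CPM in the inverted left and 24.2 to 42.5 CPM on the situs solitus right apart from 10_1 and 2_2, which had 13.0 and 9.55 CPM (log2 fold change -0.44, SE 0.279, adjusted p = 1, or -0.55 without 2_2). On the other side of the mirror, the inverted right had 33.8 to 57.7 CPM and the situs solitus left 13.6 to 50.4 CPM, a log2 fold change of 0.49. The difference between the sides was thus wider in inverted embryos, which was not tested. Heart tube muscle markers moved the same way, with sums of 1490 to 3010 CPM on the left and 2860 to 6270 CPM on the right of inverted embryos, and their part in the values of *Bmp2* was not tested.

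Of 14 genes of the anterior second heart field 2 were matched (14.3%), or 5 without 2_2, and of 20 genes of the venous pole and cardiopulmonary progenitors 4 (20%), or 6 without 2_2, where the share over all genes was 47.3%. *Nkx2-5*, a core cardiac transcription factor gene, had 46.3 to 93.7 CPM in the inverted left and 21.6 to 163 CPM on the situs solitus right, with a log2 fold change of -0.50 (SE 0.355, adjusted p = 1). *Osr1*, a gene of the posterior field, had 35.3 to 49.5 CPM in the inverted left and 15.0 to 97.2 CPM on the situs solitus right, with means of 42.6 and 42.8 CPM. *Shox2*, a gene of the sinus node lineage, had means of 4.25 and 5.74 CPM, and *Gal*, which encodes the neuropeptide galanin, had 1.83 and 1.87 CPM. The intervals of *Shox2* and *Gal* were from -1.11 to 0.66 and from -1.62 to 1.81 on the log2 scale, which would hold a large change in either direction.

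Muscle genes of the heart tube, a tissue that the dissection removed, were the list with the lowest median. All 16 genes had log2 fold changes below 0, from -1.75 to -0.158, with a median of -0.484, or -0.637 without 2_2. None was called and none was matched. *Myh7*, the slow myosin heavy chain gene, had 113, 74.6, 62.4, 35.1 and 76.3 CPM in the inverted left and 33.5 to 350 CPM on the situs solitus right (log2 fold change -1.23, SE 0.427, adjusted p = 1). *Acta1*, skeletal alpha-actin, had means of 28.8 and 66.9 CPM. The lowest fold change, -1.75, was that of the ventricular myosin light chain gene *Myl2* at means of 0.540 and 1.67 CPM. *Myh7*, *Acta1* and *Myl2* were named after their values were seen. The summed level of the list ran from 1490 to 3010 CPM in the inverted left and from 382 to 6700 CPM on the situs solitus right, so the inverted left lay inside the other range. Members of one list share their libraries, and the part of left-over heart tube tissue in these values was not tested.

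Markers of other tissues varied between libraries as well. All 11 genes tested of the yolk sac visceral endoderm list were above 0, with a median of 0.547, or 0.390 without 2_2, and summed levels of 54.5 to 814 CPM in the inverted left and 16.1 to 899 CPM on the situs solitus right. *Alb* of this list was too low to test. All 10 primitive blood genes were above 0 (median 0.255, or 0.170 without 2_2, sums of 604 to 2020 CPM against 475 to 1630 CPM). All 11 neural tube genes were above 0 (median 0.405, sums of 271 to 382 CPM against 207 to 533 CPM). Of 13 foregut endoderm genes 10 were below 0 (median -0.143, sums of 1040 to 1860 CPM against 802 to 1940 CPM). Sums of paraxial mesoderm markers were 151 to 236 CPM against 113 to 296 CPM, those of neural crest 154 to 269 CPM against 128 to 272 CPM, and those of surface ectoderm and amnion 121 to 170 CPM against 104 to 222 CPM. No gene of these lists was called, and the part of tissue composition in the fold changes of other genes was not tested. Of 11 endothelium genes 8 were matched (72.7%, against 47.3% over all genes), among them *Pecam1*, *Cdh5*, *Kdr* and *Tie1*. A mean count of 2000 or more was reached by 4 of the 11, and this share was not adjusted for depth.

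**Figure D4:**
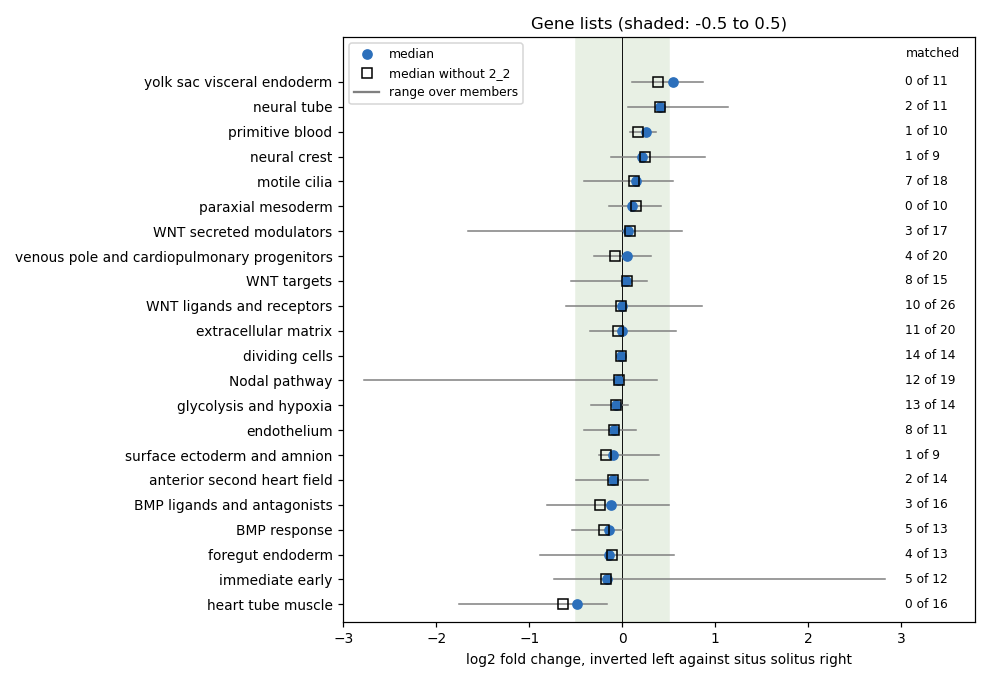
Median log2 fold change of inverted left against situs solitus right for 22 gene lists (circles), the same without embryo 2_2 (squares) and the range over members (lines), with the number of matched genes at the right. Heart tube muscle has the lowest median, at -0.484, and yolk sac visceral endoderm the highest, at 0.547, while dividing cells lie near 0 with 14 of 14 matched.

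Genes of dividing cells and of glycolysis were nearly all matched. All 14 genes of dividing cells were matched, with fold changes from -0.05 to 0.03 on the log2 scale. A mean count of 2000 or more was reached by 13 of them and by 10 of the 14 glycolysis genes, and 96.3% of all genes of that depth were matched, so these counts are near those of other genes. *Top2a*, a topoisomerase of dividing cells, had 658 ± 39.0 CPM in the inverted left (SD, n = 5) and 663 ± 45.5 CPM on the situs solitus right (SD, n = 10), with an interval from -0.12 to 0.10. Of 14 genes of glycolysis and hypoxia, 13 were matched. *Eno1*, the glycolytic enolase, had means of 3720 and 3750 CPM. The 14 genes of each list were also matched to the situs solitus left, so these lists do not tell the sides apart. Of 20 extracellular matrix genes 11 were matched (55.0%), or 11 of 16 (68.8%) without the possible clustering genes, among them *Fn1*, *Col5a1*, *Vcan* and *Sparc*, and *Col3a1* and *Dcn*, both possible clustering genes, had values above 0 (0.40 and 0.58). Of 18 motile cilia genes 7 were matched (38.9%), with a median of 0.154, and of 12 immediate early genes 5 (41.7%), where the share over all genes was 47.3%. *Egr2*, a gene of the early response, had 0.852 to 52.1 CPM in the inverted left and 0.144 to 43.8 CPM on the situs solitus right, a spread within each group larger than the difference between them.

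Groups that did not overlap were rare. Among 17906 genes with a mean count of at least 20, the 5 inverted left libraries all lay outside the range of the 10 situs solitus right libraries for 8 (0.0447%), 3 higher (0.0168%) and 5 lower (0.0279%). *Mamdc4* (ENSMUSG00000026941, chromosome 2, 25449904 to 25464857), which had the smallest p of all, had 4.70, 5.47, 5.37, 5.11 and 4.88 CPM in the inverted left and 2.96 to 4.05 CPM on the situs solitus right (log2 fold change 0.54, SE 0.105, p = 0.000102, adjusted p = 1 by edgeR and 0.00145 by DESeq2). Its mean on the inverted right was 3.57 CPM and on the situs solitus left 3.40 CPM, both below its lowest inverted left value. *Pgm1*, which encodes phosphoglucomutase and was named after its values were seen, was the most deeply counted, at 101 to 118 CPM against 121 to 184 CPM (log2 fold change -0.35, SE 0.086, adjusted p = 1). The other genes were *Cyp2d22* and *Gm11476* (higher) and *Gm18180*, *Klhdc9*, *Itgae* and *Gm11515* (lower). *Clgn* and *Crhr2*, also among the 10 genes with the smallest p, had log2 fold changes of 0.69 and 1.58 with 2 of 5 inverted left libraries inside the situs solitus right range.

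The comparison was repeated with groups set by the labels. Against the right of all 11 mutants with rightward looping, 0 of 24154 genes were called (0%), with 1628 at an unadjusted p under 0.05 (6.74%), and DESeq2 called 54. Against the right of the 5 wild types, where genotype and situs cannot be told apart, 0 of 23122 were called (0%). An unadjusted p under 0.05 was reached by 544 (2.35%), and DESeq2 called 7. Leaving out 1 embryo gave 429 to 1217 genes at this unadjusted p against the wild types, the highest without 10_1. It gave 1244 to 2386 against the 11 mutants. Against the right of the 5 situs solitus mutants, which the clustering had picked, 4 of 22879 were called (0.0175%), all 4 lower in the inverted left, with 765 at an unadjusted p under 0.05 (3.34%). For reference, the right of the situs solitus mutants against that of the wild types gave 0 of 22954 (0%, with 2.23% at an unadjusted p under 0.05), and the other side of the mirror, inverted right against situs solitus left, gave 0 of 24025 (0%, with 4.67%). These comparisons share libraries. *Sfrp2*, called in neither by edgeR, had log2 fold changes of 0.98 (SE 0.273, edgeR adjusted p = 0.596) against the 11 mutants and 0.46 against the wild types.

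The 4 genes called against the situs solitus mutants, named after their values were seen, were *Lpar2*, a lysophosphatidic acid receptor gene (ENSMUSG00000031861, chromosome 8, 70275079 to 70283752), and the processed pseudogenes *Prdx2-ps1* (chromosome 1, 99718154 to 99718750), *Gm7809* (chromosome 17, 22186482 to 22187223) and *Gm7335* (chromosome 17, 38024443 to 38024815). Reads of a pseudogene may come from its parent gene or other copies, so these counts are uncertain. *Lpar2* had 14.6, 12.7, 11.2, 12.1 and 13.5 CPM in the inverted left and 24.2, 27.8, 41.3, 31.2 and 25.5 CPM on the right of the mutants 1_6, 2_2, 17_1, 19_6 and 22_1 (log2 fold change -1.24, SE 0.149, adjusted p = 0.0251). The log2 fold changes were -1.86 (SE 0.184, adjusted p = 0.0111) for *Prdx2-ps1*, -2.42 (SE 0.261, adjusted p = 0.0111) for *Gm7809* and -4.53 (SE 0.477, adjusted p = 0.0111) for *Gm7335*, which had 0 to 5 counts in each inverted left library.

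These levels went with the embryo and not with the side. *Lpar2* had 11.7 to 13.6 CPM on the right of inverted embryos, as on their left. The wild types were split, with 12.3 and 10.8 CPM on the right of 7_1 and 8_1 and 29.6 to 30.9 CPM on that of 10_1, 17_7 and 22_4. Among the other mutants with rightward looping, which are in neither group, the right of 15_5, 18_1 and 19_4 had 13.1, 13.2 and 15.0 CPM, and that of 3_7, 23_3 and 32_3 had 33.5, 30.4 and 27.0 CPM. The same embryos were low for *Prdx2-ps1*, *Gm7809* and *Gm7335*, and *Gm18180*, a pseudogene on chromosome 1, followed them. *Prdx2-ps1* had 0.827 to 1.30 CPM in the inverted left, 1.19 and 1.2 CPM on the right of 7_1 and 8_1 and 2.90 to 4.49 CPM in the other 8 situs solitus right libraries. *Prdx2*, the gene for peroxiredoxin 2 on chromosome 8, had means of 458 and 463 CPM and was matched (interval from -0.11 to 0.09). The low level was thus present in wild-type and mutant embryos of rightward looping as well as in all 5 inverted ones.

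**Figure D5:**
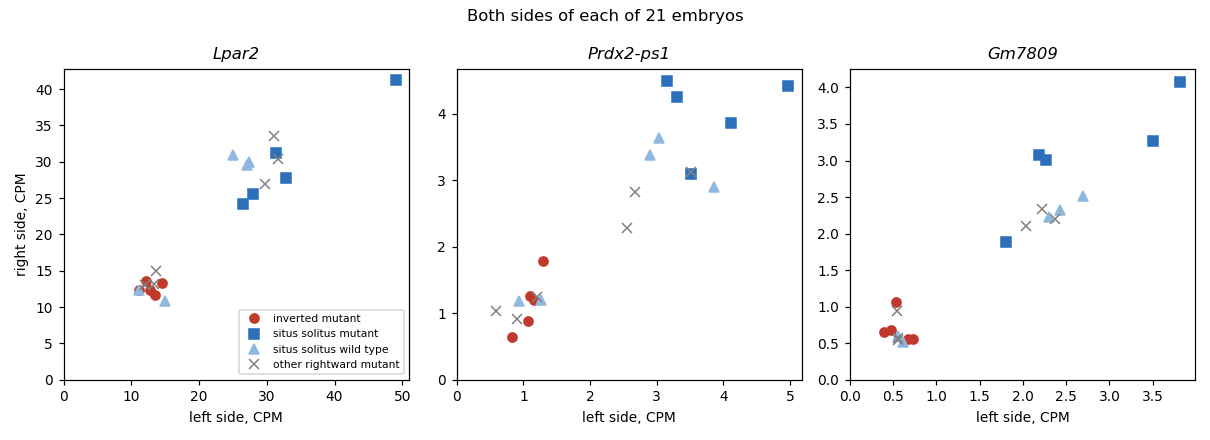
Levels in CPM on the left (horizontal axis) and right (vertical axis) of each of the 21 embryos for *Lpar2*, *Prdx2-ps1* and *Gm7809*. The 5 inverted embryos, 2 wild types and 3 other mutants with rightward looping lie together at low levels on both sides, such as 11.2 to 15.0 CPM on the left for *Lpar2*.

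Position on the genome was counted for the 100 genes with the smallest p between the inverted left and the situs solitus right. Chromosome 8 held 17 of them and 5.07% of the genes tested. Of these, 16 began between 69 and 96 Mb, a window chosen after their positions were seen, which held 391 of the genes tested (1.63%). *Lpar2*, *Clgn* and *Gng14* lie there. *Ccdc40* lies on chromosome 11, which held 9 of the 100 genes and 7.21% of those tested.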

How the data were processed

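RNA sequencing libraries were made from the left and right heart field of 21 mouse embryos with a low-input kit and sequenced in paired ends. The values analysed are raw read counts per gene that the authors deposited, after quality control with FastQC and Picard metrics, removal of duplicates, alignment with STAR to GRCm39 and counting with featureCounts (Subread 2.0.6). The strand setting of the counting is not given in the sources used here, so overlapping and antisense genes, like pseudogenes that share sequence with a parent gene, have uncertain counts. Of 56953 genes, 56310 were named by GENCODE.

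Counts of 15 libraries (36572530 to 54421974 in total) were scaled by TMM and tested with edgeR 4.0.16 (R 4.3.3) by the quasi-likelihood test with sex as a covariate, after a low-count filter (filterByExpr with the study's settings, a minimum count of 5 and a minimum total of 10 among them), with adjustment over all genes. Matches used 95% intervals of limma-voom (limma 3.58.1) within 0.5 log2. DESeq2 1.42.0, other scaling and filters, no sex term, males only, other bounds and leaving out each embryo were alternatives. Procedures were checked on simulated counts. No library was a copy of another. P-values measure the spread between embryos. Both sides of an embryo come from the same animal (median correlation of their deviations 0.396, over 0.1 in 18 of 21 embryos), but no embryo is in both groups of the comparison.

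Named genes were the 10 with the smallest p, the 10 most asymmetric of the wild-type list in situs solitus mutants, the genes named in the study's text on its transcriptomes, up to 4 examples a list and the best-expressed matched genes. Members and lists were chosen with earlier results of these data known. Genes that may have formed the clusters were rebuilt as 30 candidates from wild-type comparisons and carry no test. Some genes that these rules name are not reported here.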

Additional observations from a re-analysis of the deposited data

Results flagged for a closer look

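In the groups of 5 inverted left and 10 situs solitus right libraries, 17 of 196 values tested had 1 library far from the others by Dixon's test at its 95% critical value, where chance gives about 1 in 20. No explanation was tested for them.

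On the situs solitus right, 5 came from the mutant 2_2, which was lowest for *Hand1* (1.56 CPM), *Ccn4* (1.98 CPM), *Wnt11* (0.572 CPM), *Wnt2* (3.02 CPM) and *Foxf1* (8.74 CPM), all genes of heart field or lateral mesoderm. The wild type 10_1 gave 4, with the highest *Ccnd1* (351 CPM) and *Slc2a1* (1220 CPM) and the lowest *Isl1* (54.8 CPM) and *Fn1* (658 CPM). The mutant 1_6 was lowest for the replication gene *Pcna* (107 CPM, others 156 to 235), the mutant 19_6 for the axonemal dynein gene *Dnai1* (0.051 CPM, others 0.312 to 0.644) and the wild type 7_1 for *Lefty1*, with 0 counts.

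In the inverted left, 18_2 was lowest for *Gm7335*, with 0 counts, and highest for *Gm35533* (2.1 CPM, others 0.884 to 1.05) and *Slc8a3* (2.48 CPM, others 1.84 to 1.94). The embryo 10_3 was lowest for *Cdx2* (0.422 CPM, others 2.4 to 3.26) and *Dcn* (4.09 CPM, others 8.67 to 10.6).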

How the results depend on the processing

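The count of genes differing between the inverted left and the situs solitus right was 0 with edgeR and 0 under RLE scaling, no filter, a filter at 10 counts, no sex term, males only, limma-voom, a fit of all 42 libraries and the removal of any 1 of the 15 embryos (range 0 to 0, with 591 to 1119 genes at an unadjusted p under 0.05). It was 5 with DESeq2 and 4 against the 5 situs solitus mutants, and the cause was not tested. With embryo as a replicate block over 30 libraries (consensus correlation 0.199), it was 0, with 920 genes at an unadjusted p under 0.05, and 11748 genes were matched, so the pairing changed no call. The count of matched genes was 7376 with a bound of 0.3 and 17799 with a bound of 1, where 11358 had the bound of 0.5, by construction. It was 10405 to 11336 when 1 embryo was left out. DESeq2 called 54 genes against the 11 mutants with rightward looping and 7 against the wild types, where edgeR called 0 and leaving out each embryo of either group gave 0 to 0 in both. The wild-type list put the inverted left at 0.135 above the right of the situs solitus mutants, at 0.00464 for the 316 genes at p under 0.05 and at 0.314 for the 7 genes at p under 0.001. Leaving out each of the 10 embryos gave -0.0412 to 0.195, the lowest without 2_2. Without the possible clustering genes it was 0.0888, and -0.0502 also without 2_2. Leaving out these genes, and reference embryos in the last 3 comparisons, was chosen after seeing the data. For single named genes, 2463 of 2535 values under 25 settings were within 1 SE of the value reported and 63 moved further. In 9, genes became called under DESeq2 or against the situs solitus mutants, and 0 called values turned sign. The sign differed for 132 values, none of them called. Depth limits the matches, which were 0.115% of genes with a mean count under 20 and 21.7% at 20 to 200.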
